A study of Mus musculus with 6 samples.

Results

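The 8 interferon regulatory factor genes Irf1, Irf2, Irf3, Irf4, Irf5, Irf7, Irf8 and Irf9 were taken by symbol from a count table of 48397 genes, and all 8 were listed in it. The libraries came from stage 0 invariant natural killer T (iNKT) cells, the earliest precursors of this innate-like T cell lineage in the thymus. BALB/c mice were compared with SKG mice, which have the BALB/c background and carry a hypomorphic mutation of Zap70, the kinase that relays the T cell receptor (TCR) signal. Each genotype had 3 libraries from independent samples, numbered here by the replicate number in their titles. For each library the thymi of 3 animals, 8 to 10 weeks old, were combined and about 1000 cells were sorted. The sort took cells that bound the PBS57-loaded CD1d tetramer, were CD44-, CD24+ and CD69+, had little or no CD4 and lacked CD8. In a bulk library, fewer cells of a type and less RNA per cell cannot be told apart.

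Interferon regulatory factors share a DNA-binding domain that reads interferon-stimulated response elements. Irf3 and Irf7 are switched on by kinases downstream of nucleic acid sensors and drive type I interferon genes. Irf9 carries the type I interferon signal to DNA, and Irf1 and Irf2 act on overlapping sites as an activator and a largely opposing factor. Irf4 is induced in T cells by TCR signalling in a graded manner, and together with Irf8 it binds DNA with Ets-family or AP-1 partners. Irf5 acts downstream of Toll-like receptors, mostly in myeloid and B cells.

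The library totals ranged from 37176544 to 43115544 counted reads, and between 10835 and 14791 genes reached 10 reads. Of all genes tested, 14.8% had 0 reads in at least 1 library, and for 33% the highest library was at least 10 times the lowest or a library was at 0. Zap70, whose mutation changes the protein, had 497, 471 and 373 CPM (read counts scaled to a common library total) in BALB/c libraries 1 to 3 and 321, 338 and 408 in SKG libraries 1 to 3. Its level therefore overlapped between the genotypes, and it does not check the labels. Transcripts of other cells were present at levels that differed between libraries, as given for Irf8, and summed T lineage markers lay between 7216 and 9905 CPM in all 6. Of the gate's own genes, Cd69 had 352 ± 39.9 CPM in BALB/c and 193 ± 50.4 CPM in SKG (SD, n = 3) with no overlap (log2 fold change -0.87, adjusted p = 0.686, edgeR), and Cd24a had 25.0 ± 23.9 and 70.2 ± 33.3 CPM with overlap (1.49, adjusted p = 0.959). Cd8a had 922 to 4985 reads, or 20.4 to 121 CPM, although the gate excluded CD8.

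The promoter sequences of Irf4, Irf7, Irf8 and Irf1 are shown. Irf4 is the gene induced by TCR signalling, and Irf7 the gene whose genotypes did not overlap. Among the tested members, Irf8 varied most between libraries and Irf1 least. Each sequence is the run of 250 bases before a RefSeq start on GRCm38.p6, 5′ to 3′ on the strand of the gene. Capitals mark matches on either strand to the core of the interferon-stimulated response element (GAAA, any 2 bases, GAAA), to TTCNNNGAA, the gamma-activated site, to a loose form of the kappa-B site (GGG, any 5 bases, CC), and to TGACTCA, the AP-1 site.
Irf4 chr13:30748983-30749232 (plus strand): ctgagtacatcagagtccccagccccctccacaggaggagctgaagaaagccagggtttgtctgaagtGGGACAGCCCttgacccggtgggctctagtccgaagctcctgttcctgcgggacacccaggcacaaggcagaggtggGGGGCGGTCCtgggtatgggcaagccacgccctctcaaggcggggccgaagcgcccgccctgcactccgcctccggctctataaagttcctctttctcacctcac
Irf7 chr7:141266425-141266674 (minus strand): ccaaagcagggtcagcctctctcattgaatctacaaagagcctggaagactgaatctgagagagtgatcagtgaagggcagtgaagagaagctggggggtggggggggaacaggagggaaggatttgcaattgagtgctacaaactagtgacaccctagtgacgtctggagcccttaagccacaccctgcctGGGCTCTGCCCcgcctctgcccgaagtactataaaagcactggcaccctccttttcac
Irf8 chr8:120736108-120736357 (plus strand): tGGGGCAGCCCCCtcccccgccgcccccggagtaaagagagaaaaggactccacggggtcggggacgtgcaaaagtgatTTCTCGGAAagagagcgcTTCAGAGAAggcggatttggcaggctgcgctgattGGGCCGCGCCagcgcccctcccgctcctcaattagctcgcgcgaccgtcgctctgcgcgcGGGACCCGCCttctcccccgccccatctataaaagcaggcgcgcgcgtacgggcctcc
Irf1 chr11:53769764-53770013 (plus strand): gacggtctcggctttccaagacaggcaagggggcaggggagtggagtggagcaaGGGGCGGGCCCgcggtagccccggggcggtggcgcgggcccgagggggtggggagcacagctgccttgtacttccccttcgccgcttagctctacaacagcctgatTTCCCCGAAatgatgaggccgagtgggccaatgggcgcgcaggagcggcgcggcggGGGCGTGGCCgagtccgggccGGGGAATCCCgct
In windows of 300 bases that also hold the first 50 after the start, TTCNNNGAA was found in 8.3% of 32851 mouse promoters and in 3 of 11 windows of the family, those of Irf1, Irf2 and Irf8. In Irf1 the match TTCCCCGAA lay 90 to 82 bases before the start, and a kappa-B-like match, GGGGAATCCC, lay 13 to 4 bases before it. Irf8 held 2 matches, TTCTCGGAA and TTCAGAGAA. Irf1 and Irf8 each had another start, whose window, not shown, held no match to any of the sites marked above. The response element core occurred in 3.44% of all windows and in 1 of the 11, that of Irf2, while the kappa-B-like form occurred in 50.8% and in 8 of 11, and TGACTCA in 5.2% and in 0 of 11. These are matches of letters, and the kappa-B-like form can overlap itself on both strands. The GENCODE model of Irf7 begins inside the window shown, so its start depends on the annotation.

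The question put to the family was whether reduced Zap70 activity went with a different level of any member, Irf4 being the member known to follow TCR signal strength. No member was called in edgeR. At an adjusted p under 0.1 and a change of at least 1.5-fold in edgeR's quasi-likelihood test, 0 of the 6 members that passed the filter on low counts were called, against a background of 0% of 12312 genes tested. At an unadjusted p under 0.05 the counts were 0 of 6 members and 5.45% of all genes. Of the 6, 5 had a negative log2 fold change (SKG over BALB/c) and 1 a positive one, with a median of -0.20, against -0.02 over all genes tested. With 1 library left out, the median over the 6 to 8 members then tested was -0.45 without BALB/c library 3 and -0.35 without SKG library 3, and the count at an unadjusted p under 0.05 was 1 of 8 without BALB/c library 1 and 0 in the other fits. The lowest adjusted p of any gene was 0.212. Irf4 and Irf5 did not pass the filter, since each reached 10 reads in only 2 libraries.

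**Figure D1:**
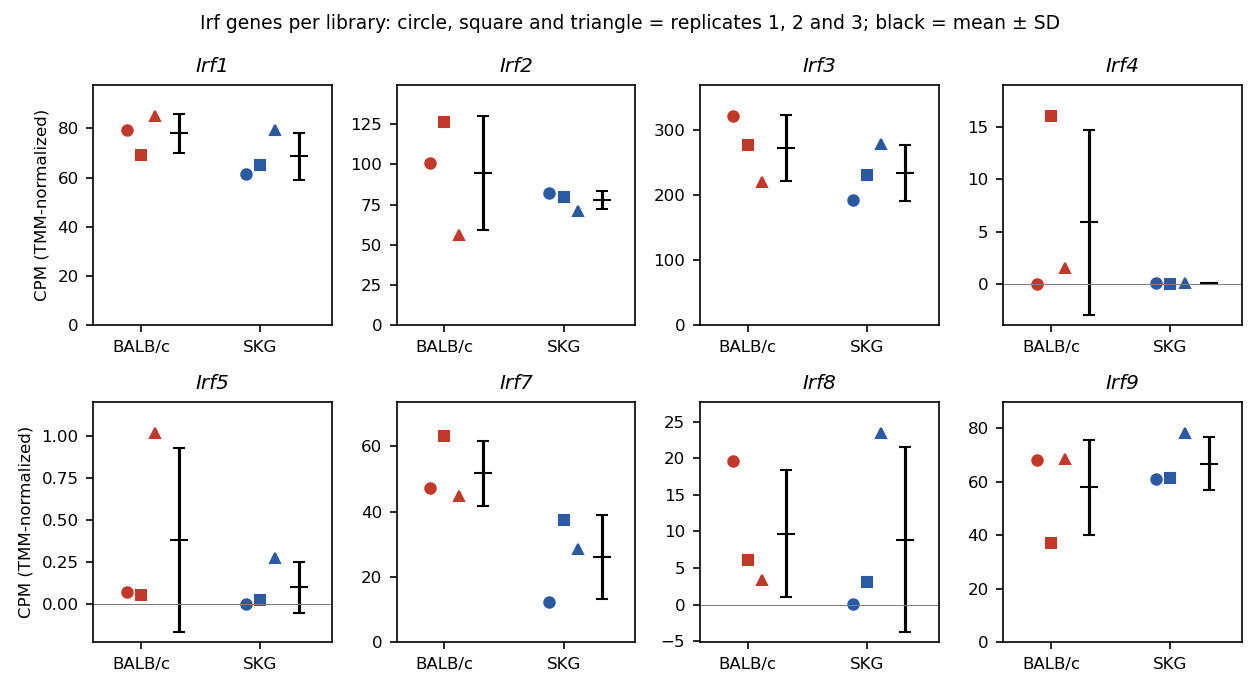
CPM of each of the 8 Irf genes (vertical axes, each with its own scale) in the 3 BALB/c libraries (red) and the 3 SKG libraries (blue), where circle, square and triangle are replicates 1, 2 and 3 and the black bar is the mean ± SD (n = 3). The genotypes are separate only for Irf7, and single libraries stand far above the others for Irf4, Irf5 and Irf8.

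Irf4 was close to absent in SKG cells and uneven in BALB/c cells. It had 1, 597 and 68 reads in BALB/c libraries 1 to 3 and 2, 0 and 2 reads in SKG libraries 1 to 3, or 0.0242, 16.1 and 1.501 CPM against 0.0494, 0 and 0.0552. BALB/c library 2 therefore held most reads of the gene, and BALB/c library 1 lay below SKG libraries 1 and 3. All 3 SKG libraries and BALB/c library 1 were under 3 reads, a count below which presence and absence are not told apart here. The means were 5.86 ± 8.86 CPM in BALB/c and 0.0349 ± 0.0303 CPM in SKG (SD, n = 3). In edgeR without the filter the fitted log2 fold change was -7.27 (SE 2.60, unadjusted p = 0.0173, adjusted p = 0.645), where 4.4% of genes had an unadjusted p under 0.05 and 0.00771% were called. The fold is a size that depends on the prior count and is not a bound.

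The call on Irf4 depended on the tool and on 1 library. Of the 14342 genes that DESeq2 without shrinkage gave an adjusted p, 2.58% were called, 1.35% as higher in BALB/c. Irf4 was called in that fit (log2 fold change -7.39, adjusted p = 0.0212) and was the only member called in any setting. Shrinkage in DESeq2 left -1.65 (adjusted p = 0.407). Without BALB/c library 2, unshrunken DESeq2 gave -4.41 (adjusted p = 0.609), and with any other library left out its adjusted p lay between 0.000212 and 0.0549. The 5 tested genes whose profile over the 6 libraries was nearest to that of Irf4, by root mean square difference of centred log2 CPM, were 2310043P16Rik, Phf21b, Calr3, Zfp931 and Kcnf1, at distances of 1.09 to 1.15 where Irf4 itself lay 3.00 from its own mean. Kcnf1, a potassium channel subunit gene, had 20, 1731 and 278 reads for BALB/c against 2, 1 and 1 for SKG, the same lead of BALB/c library 2. Irf4 lies at chr13:30749226-30766976 (plus strand, GRCm38), and no other gene shares its exons.

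Irf7, the amplifier of type I interferon production, was the only member whose genotypes did not overlap. It had 47.1, 63.1 and 44.7 CPM in BALB/c and 12.2, 37.4 and 28.7 CPM in SKG, so every BALB/c library lay above every SKG library. SKG library 1 was the lowest. Such separation was seen in 1 of 6 members and in 13.9% of genes tested, 7.12% with BALB/c higher and 6.79% with SKG higher. The means were 51.6 ± 10.0 and 26.1 ± 12.8 CPM (SD, n = 3), 1.98-fold higher in BALB/c. The log2 fold change was -0.98 (SE 0.49, 95% interval -2.16 to 0.19), with an unadjusted p of 0.0875 and an adjusted p of 0.952 in edgeR, so the difference did not pass the test. limma-voom gave -1.12 (unadjusted p = 0.0413, adjusted p = 0.627), where 7.86% of genes had an unadjusted p under 0.05. The edgeR value was -0.65 without SKG library 1 and -1.33 without SKG library 2, and lay between these with any other library left out. Irf7 lies at chr7:141262706-141266481 (minus strand), and 45 of its exon bases are shared with Phrf1.

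Irf3, the constitutively made sensor-activated factor, was the most abundant member. It had 321, 277 and 220 CPM in BALB/c and 192, 230 and 278 CPM in SKG, and took between 45.8% and 50.4% of the reads of the family in every library. Its genotypes overlapped, with means of 272 ± 50.7 and 234 ± 42.9 CPM and a log2 fold change of -0.22 (SE 0.21, adjusted p = 0.991, edgeR). The 95% interval of -0.73 to 0.28 bounds what these libraries allow. Irf3 lies at chr7:44997648-45002848 (plus strand), and 2.56% of its exon bases overlap Bcl2l12.

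Irf1, which interferon-gamma induces and which activates MHC class I and immunoproteasome genes, was the steadiest member. It had 79.5, 69.3 and 85.1 CPM in BALB/c and 61.4, 65.2 and 79.3 CPM in SKG, with overlap in the upper SKG library. The log2 fold change was -0.18 (SE 0.23, 95% interval -0.74 to 0.37, adjusted p = 0.991, edgeR). Its within-genotype SD was 0.17 on the log2 scale, lower than that of all but 4.52% of genes tested, where the median gene had 0.636. Irf1 lies at chr11:53770014-53778374 (plus strand), and 135 of its exon bases overlap Gm17334.

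Irf2, the factor that competes with Irf1 for the same sites, had 100.8, 126.5 and 56.4 CPM in BALB/c and 82.3, 79.7 and 71.3 CPM in SKG. The BALB/c libraries lay on both sides of the SKG libraries, which were close together. The log2 fold change of -0.28 (SE 0.32, adjusted p = 0.991, edgeR) became -0.02 without BALB/c library 2 and -0.54 without BALB/c library 3. Irf2 lies at chr8:46739732-46847458 (plus strand).

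Irf9, the DNA-binding subunit of the type I interferon response complex, was the only tested member with a positive value. It had 68.0, 37.3 and 68.4 CPM in BALB/c and 61.0, 61.3 and 78.2 CPM in SKG. BALB/c library 2 stood below the other 5, and without it the log2 fold change of 0.21 (SE 0.33, 95% interval -0.57 to 0.99, adjusted p = 0.991, edgeR) was -0.038. Irf9 lies at chr14:55603571-55610030 (plus strand) and shares 2.28% of its exon bases with Rnf31 on the same strand.

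Irf5 was at the limit of detection. It had 3, 2 and 46 reads for BALB/c against 0, 1 and 10 for SKG, and only replicate 3 of each genotype exceeded 3 reads. Without the filter, edgeR gave a log2 fold change of -1.91 (SE 2.52, adjusted p = 0.774), and without BALB/c library 3 it was 0.65. A library with 0 reads allows up to 3, which is 0.0741 CPM in SKG library 1, and such limits cover counting error only, since the reads are PCR copies without molecular identifiers. Irf5 lies at chr6:29526625-29541871 (plus strand), and 14.1% of its exon bases overlap Tnpo3 on the opposite strand, which unstranded counting cannot tell apart.

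Irf8, the factor that dendritic cells, monocytes and B cells require, varied more between libraries of a genotype than between genotypes. It had 19.6, 6.11 and 3.36 CPM in BALB/c and 0.124, 3.06 and 23.4 CPM in SKG, a range of 189-fold. BALB/c library 1 and SKG library 3 were the highest, and SKG library 1 held 5 reads. The means of 9.68 ± 8.68 and 8.86 ± 12.7 CPM gave a log2 fold change of -0.13 (SE 1.62, 95% interval -4.00 to 3.75, adjusted p = 0.999, edgeR). It was -2.58 without SKG library 3, 0.90 without BALB/c library 1, 0.44 without SKG library 1 and 0.29 without SKG library 2, so the direction turned with 1 library, and limma-voom gave -1.83. Irf8 lies at chr8:120736358-120756694 (plus strand).

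The same 2 libraries were the highest for some, but not all, of 10 listed myeloid and antigen-presentation transcripts. Lyz2, the myeloid lysozyme gene, had 2215, 188 and 8 reads for BALB/c against 5, 132 and 3873 for SKG. Cd74, the MHC class II invariant chain, had 1021, 3 and 30 reads against 4, 83 and 2863, and H2-Aa, a class II chain, 353, 0 and 0 against 2, 81 and 826. SKG library 3 alone also held Spib, an Ets factor of plasmacytoid dendritic and B cells, at 673 reads, with at most 3 elsewhere, and Siglech, a plasmacytoid dendritic cell receptor, at 270, with at most 12 elsewhere. Mpeg1, a macrophage pore-forming gene, was at 0 in BALB/c library 1 and had 642 reads in SKG library 3. Itgam, Itgax, Csf1r, Adgre1 and Flt3, of the same myeloid list, had 0 reads in both BALB/c library 1 and SKG library 3. Flt3 had 71 reads in BALB/c library 3 and 27 in SKG library 1, and Itgax had 15 in BALB/c library 3. Cst3, at 68.9 to 163 CPM, was highest in the same 2 libraries and made up most of the list's sum outside SKG library 3. The plasmacytoid list was not uniform, since Tcf4, an E protein of these cells, was lowest in SKG library 3 at 78 reads and highest in SKG library 1 at 894, and Ccr9, a chemokine receptor that thymocytes also carry, made up much of the summed level at 31.3 to 93.5 CPM. Over whole lists, 10 myeloid and dendritic markers, of which 4 passed the filter, summed to 95.6 to 249 CPM in BALB/c and 70.1 to 357 CPM in SKG. The 6 plasmacytoid markers summed to 44.7 to 96.7 and 71.0 to 112 CPM, with Klk1 at 0 throughout, and the 7 B cell markers to 1.72 to 6.82 and 3.13 to 21.4 CPM. Double-positive thymocyte markers ran from 42.9 to 422 CPM in BALB/c and from 71.6 to 172 CPM in SKG, thymic epithelial markers from 28.2 to 53.1 and 12.1 to 166 CPM with Krt5 and Psmb11 at 0, and erythroid markers from 0.0269 to 69.6 and 0.0514 to 0.690 CPM with Alas2 at 0. In each of these lists BALB/c library 1 was the highest of its genotype, and SKG library 3 was the highest of its genotype. The T lineage markers shared this order, so it was not particular to markers of other cells. They summed to 9905, 7302 and 7656 CPM in BALB/c libraries 1 to 3 and 7216, 7797 and 9309 CPM in SKG libraries 1 to 3. The lists are not separate, since Cd74 counts in both the myeloid and the thymic epithelial sums. The part of other cell types in the Irf8 values was not tested. Without both BALB/c library 1 and SKG library 3, an alternative chosen after seeing the data, the log2 fold change of Irf8 was -1.55.

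**Figure D2:**
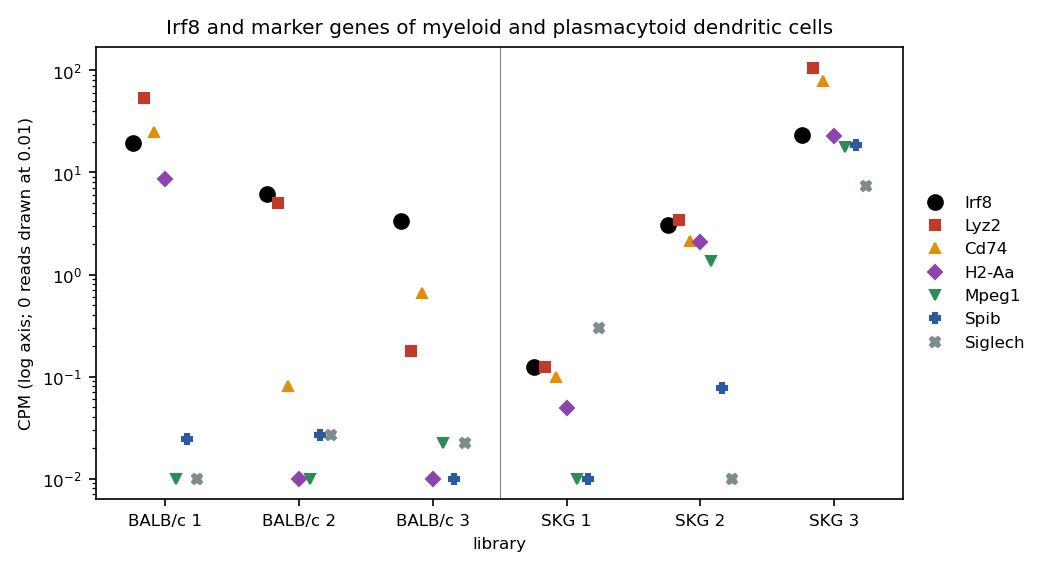
CPM of Irf8 (black) and of 6 marker genes of myeloid, antigen-presenting and plasmacytoid dendritic cells (vertical log axis, libraries at 0 reads drawn at 0.01) in each of the 6 libraries (horizontal axis). Irf8 was 19.6 CPM in BALB/c library 1 and 23.4 CPM in SKG library 3, where Lyz2, Cd74 and H2-Aa were also highest. The 6 were picked from lists of 10 myeloid and 6 plasmacytoid markers. Of those not drawn, Itgam, Itgax, Csf1r, Adgre1 and Flt3 had 0 reads in both libraries, and Tcf4 was lowest in SKG library 3.

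Set per length, the members formed a wide ladder. On the scale of CPM per kilobase of merged exons, BALB/c levels were 79.1 ± 14.7 for Irf3, 19.6 ± 2.02 for Irf1, 13.7 ± 2.65 for Irf7, 12.8 ± 4.80 for Irf2, 10.8 ± 3.31 for Irf9, 1.37 ± 1.23 for Irf8, 1.20 ± 1.81 for Irf4 and 0.131 ± 0.189 for Irf5 (SD, n = 3). Neighbours in this order overlapped except Irf3 over Irf1, Irf1 over Irf7 and Irf9 over Irf8. In SKG the levels were 67.9 ± 12.5 for Irf3, 17.3 ± 2.37 for Irf1, 12.4 ± 1.83 for Irf9, 10.5 ± 0.778 for Irf2, 6.91 ± 3.38 for Irf7, 1.26 ± 1.80 for Irf8, 0.0346 ± 0.0525 for Irf5 and 0.00711 ± 0.00619 for Irf4. There the separate neighbours were Irf3 over Irf1, Irf1 over Irf9 and Irf9 over Irf2. Irf7 was the third in BALB/c and the fifth in SKG, but by coding length it was the fifth in both, after Irf3, Irf2, Irf1 and Irf9.

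**Figure D3:**
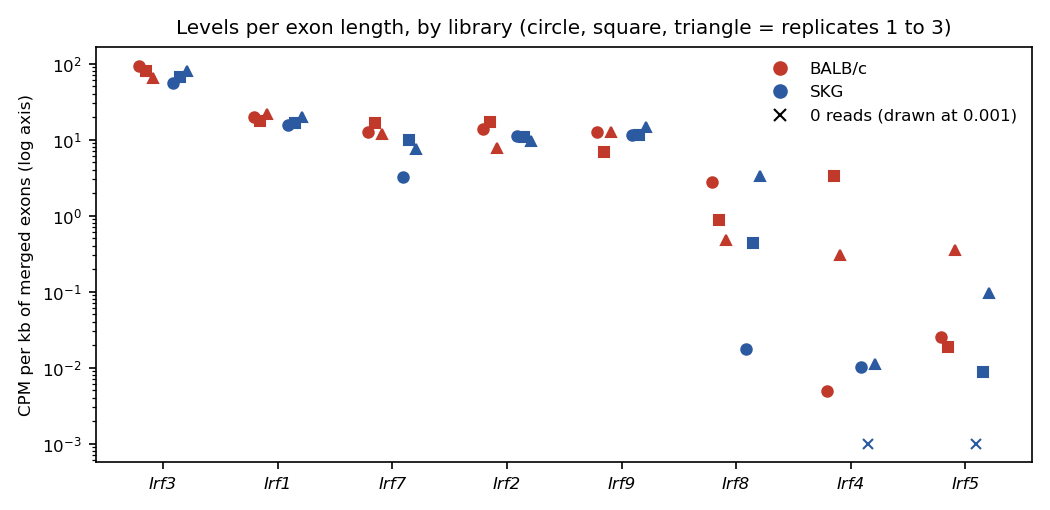
CPM per kilobase of merged exons (log axis) for the 8 Irf genes, ordered by their BALB/c mean, with 1 point per library (red BALB/c, blue SKG; circle, square and triangle are replicates 1 to 3; crosses are libraries with 0 reads). Irf3 sits above all others in every library, and Irf8, Irf4 and Irf5 spread over far wider ranges than the 5 abundant members.

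The 5 abundant members varied less within genotypes than the other 3. The within-genotype SD on the log2 scale was 0.17 for Irf1, 0.27 for Irf3, 0.38 for Irf9, 0.43 for Irf2 and 0.62 for Irf7. All were under the median gene's 0.636, but Irf7 lay close to it, above 49.2% of genes tested. The mean CPM of these 5 lay above 55.3% (Irf7) to 93.6% (Irf3) of genes tested, and they were not compared with genes of like level. It was 1.66 for Irf5, 2.68 for Irf8 and 2.80 for Irf4, the last above 86.4% of genes tested. The 3 members that varied most were also the 3 of lowest level per kilobase in both genotypes.

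**Figure D4:**
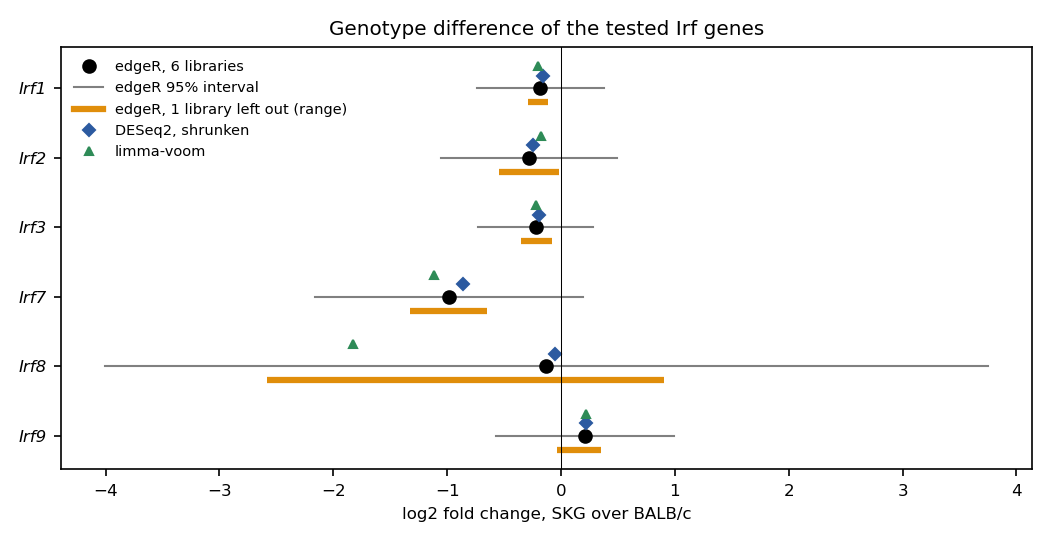
Log2 fold change, SKG over BALB/c (horizontal axis), of the 6 tested Irf genes by edgeR (black, with its 95% interval in grey), by edgeR with 1 library left out (orange range), by DESeq2 with shrinkage (blue) and by limma-voom (green). Every 95% interval includes 0, and the ranges of Irf8 and Irf9 with 1 library left out cross 0.

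The genes around the family were read from 8 lists, 7 of the interferon pathway and its partners and 1 of TCR-induced genes, and edgeR called 0 genes in any of them. Upstream, the 19 sensors, adaptors and kinases that activate Irf3, Irf5 and Irf7 had 15 genes tested. None had an unadjusted p under 0.05 in edgeR (0 to 2 with 1 library left out), where 5.45% of all genes tested did. Traf6, a ubiquitin ligase of this pathway, was nearest at a log2 fold change of 0.80 (unadjusted p = 0.0627), and Myd88, the Toll-like receptor adaptor that bridges to Irf7, had -0.74 (unadjusted p = 0.0796). Ifih1, a sensor of double-stranded RNA, had 2.52 (unadjusted p = 0.192) and Mb21d1, the cytosolic DNA sensor, -3.24 (unadjusted p = 0.272). Of 9 interferon genes, 8 were at 0 in every library, and Ifng had 312 reads in BALB/c library 1 and 0 elsewhere.

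Of the 10 interferon receptor, Jak and Stat genes, all tested, 3 had an unadjusted p under 0.05, all toward SKG, where 3.07% of genes tested did so, and 2 did without BALB/c library 1 and SKG library 3. They were Jak1 (log2 fold change 0.59, unadjusted p = 0.00632, adjusted p = 0.686), Ifngr1 (0.86, 0.0104 and 0.734) and Tyk2 (0.69, 0.0276 and 0.834) in edgeR, and Jak2 followed at 0.75 (unadjusted p = 0.0715). The list median was 0.50, and was 0.27 without BALB/c library 1 and 0.28 without SKG library 1.

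Several genes of proteins that bind DNA with Irf4 and Irf8, or regulate Irf4, had higher values in SKG. Of 13 genes, 9 were tested and 5 had an unadjusted p under 0.05, all toward SKG, where 3.07% of genes tested did so, with a list median of 0.56. Without BALB/c library 1 and SKG library 3 the count was 4, and without SKG library 2 it was 3 toward SKG and 1 toward BALB/c. Nfatc1, a calcium-dependent factor, had a log2 fold change of 0.85 (SE 0.17, unadjusted p = 0.00168, adjusted p = 0.617, edgeR), Tcf3, an E protein, 0.56, Swap70 and Def6, related regulators of Irf4 activity, 1.18 and 0.63, and Jun, an AP-1 subunit, 1.22. Of the other 4, Batf had -0.44, Junb -0.28, Nfatc2 -0.18 and Jund 0.13. Shrunken DESeq2, which called 1.67% of the genes that it gave an adjusted p, called Nfatc1 (adjusted p = 0.0303) and Swap70 (adjusted p = 0.0780). The 3 genes of Irf2-binding corepressors had log2 fold changes of 0.83 for Irf2bp1, 0.68 for Irf2bp2 and 0.50 for Irf2bpl, none under 0.05.

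Downstream, 19 of 28 interferon-stimulated genes were tested. Where 5.45% of all genes tested had an unadjusted p under 0.05 in edgeR, 1 of these 19 did, a share near that of all genes. It was Ifi27, at 171 ± 26.6 CPM in BALB/c and 90.1 ± 12.0 CPM in SKG (SD, n = 3; log2 fold change -0.93, SE 0.20, adjusted p = 0.619 in edgeR and 0.0220 in shrunken DESeq2). Xaf1 had -3.08, Rtp4 -1.20 and Oas1a 3.50 (unadjusted p = 0.200, 0.214 and 0.264). The list median was -0.50, and 0.07 without BALB/c library 2, and with 1 library left out 1 to 3 genes were under 0.05 toward BALB/c. Of 17 genes of antigen presentation and interferon-gamma response that Irf1 can regulate, 15 were tested and 2 were under 0.05, both toward BALB/c, where 2.38% of genes tested were. They were Tapbp, a peptide-loading chaperone (-0.61, adjusted p = 0.804), and H2-D1, a class I heavy chain (-0.42, adjusted p = 0.834), both in edgeR. B2m, the class I light chain, had -0.43 (unadjusted p = 0.0537), and Psmb9, an immunoproteasome subunit, -0.47 (unadjusted p = 0.121). The list median was -0.18, and with 1 library left out it ran from -0.37 without SKG library 1 to -0.0067 without SKG library 2.

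For setting Irf4 beside genes of the same input, 12 genes induced by TCR signalling were read as well, a list drawn up with its direction in these data known, so that it is no independent evidence. All 12 were tested, 6 had an unadjusted p under 0.05, all toward BALB/c, where 2.38% of genes tested did so, and the list median was -0.83. The count was 5 without BALB/c library 1 and SKG library 3, and without BALB/c library 3 it was 5 toward BALB/c and 1 toward SKG. Myc had a log2 fold change of -1.43, Ier2 of -1.53, Egr1 of -0.92 and Tnfrsf9 of -1.39 (adjusted p = 0.328, 0.380, 0.447 and 0.617, edgeR). These were the 4 of the 12 that shrunken DESeq2 called, against 1.67% of the genes that it gave an adjusted p. Of the 12, 9 had negative values in edgeR and 3 positive ones. The positive ones were Nr4a3 at 1.88, Egr3 at 1.80 (0 to 78 reads) and Cd5 at 0.01, while Nr4a1 had -0.24. The BALB/c libraries held 14120 to 17568 reads of Myc and the SKG libraries 4382 to 6734, with no overlap, whereas Irf4 passed 100 reads in 1 library.

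**Figure D5:**
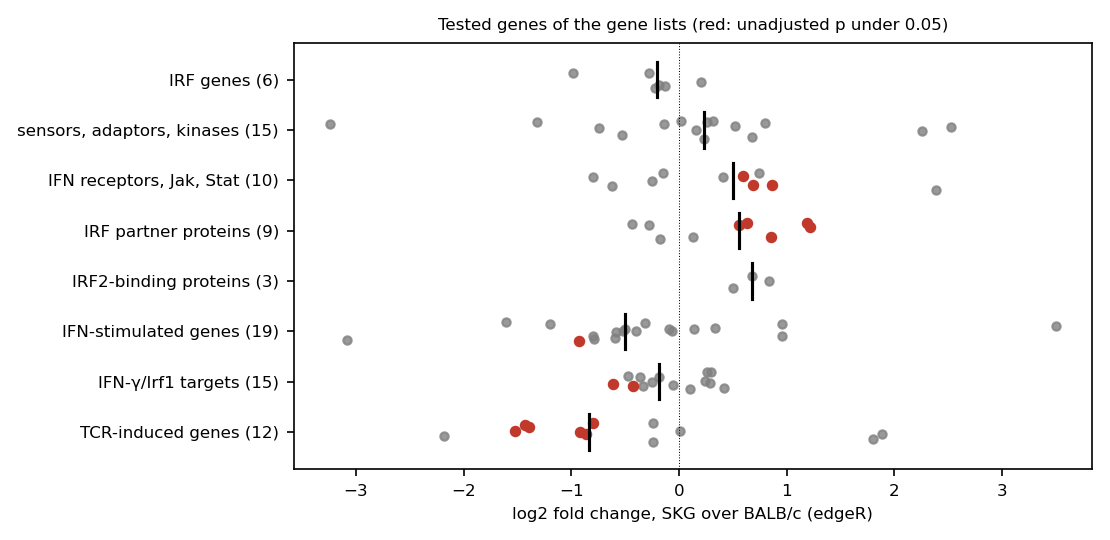
Log2 fold change, SKG over BALB/c (horizontal axis, edgeR), of every tested gene of the Irf family and of 7 neighbouring lists (rows, number of genes tested in brackets), with list medians as black bars and genes with an unadjusted p under 0.05 in red (the interferon genes had none tested). The Irf median is -0.20, the partner list lies to the right at 0.56 and the TCR-induced list to the left at -0.83.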

How the data were processed

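RNA was sequenced from 6 libraries as single-end reads of 50 nt. The authors aligned reads to GRCm38 with HISAT2 2.1.0, kept a mapping quality of at least 10, and deposited whole-number counts per gene from featureCounts (Subread 1.4.4, Ensembl 85, no strand). The sources differ on the preamplification kit and its number of cycles. A second deposited table with the authors' DESeq2 1.14.1 comparison was not used.

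Counts were tested across all genes in R 4.3.3 with edgeR 4.0.16 (TMM, filterByExpr with a minimum count of 10, quasi-likelihood test, Benjamini-Hochberg adjustment); DESeq2 1.42.0 and limma 3.58.1 (voom) were alternatives. A call needed an adjusted p under 0.1 and 1.5-fold. CPM values use TMM library sizes. The edgeR procedure was tested on simulated data. The 3 libraries of a genotype were independent samples from 1 experiment, per the study's methods. Positions and lengths came from GENCODE M21. The members and gene lists were chosen with earlier results of these data known. From each list up to 4 genes were named, those of lowest unadjusted p in edgeR, and others were chosen after their values were seen.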

Additional observations from a re-analysis of the deposited data

How the results depend on the processing

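Over all genes, edgeR called 0 at an adjusted p under 0.1 and 1.5-fold (671 at an unadjusted p under 0.05), limma-voom 0, edgeR without the filter 2, DESeq2 with shrinkage 231 and DESeq2 without shrinkage 370. Only the last called a member, Irf4 at a log2 fold change of -7.39. Leaving out 1 library at a time gave 0 to 0 calls over all genes in edgeR, and 0 to 0 members. The member values that changed sign when 1 library was left out were those of Irf5 (range -4.63 to 0.65), Irf8 (-2.58 to 0.90) and Irf9 (-0.038 to 0.35), while Irf4 in unshrunken DESeq2 ran from -7.98 to -4.41. Of the member log2 fold changes over all settings, 128 kept direction and side of the threshold, 6 reversed, 1 became called and 1 lost its call. These counts include Irf4 in unshrunken DESeq2 with 1 library left out, set against its own value from all 6 libraries. With at most 2 genes called in any edgeR setting, keeping the side of the threshold says little. With a replicate block by title number or by library number (the number in the sample description, which differs from that of the title for BALB/c), edgeR called 0 genes and Irf7 had -1.11 and -0.74, but Irf5 turned to 0.59 under the library number. In the partner list, 4 and 1 of the 9 genes were then under an unadjusted p of 0.05. By library number, however, BALB/c library 3 (number 4) and SKG library 1 (number 1) had no partner in their blocks. Such a fit takes no genotype difference from these libraries. The turn of Irf5 and the lower partner count under the library number therefore cannot be told apart from the loss of these libraries. Deviations from the genotype mean had correlations between -0.143 and 0.00005 for libraries of the same title or library number. For the other pairs they lay between 0.00892 and 0.119. With deviations taken from means of 3 libraries, these values cannot decide whether the numbers pair the samples. Counts of 3 reads or fewer in Irf4 and Irf5, and 3 libraries a genotype with a biological coefficient of variation of 91.8%, limit what can be shown.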
